A study of Mus musculus with 7 samples.

Results

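The genes described here are 10 genes that neurons are known to switch on or raise when their axon is cut or withdraws: *Atf3*, *Jun*, *Sox11*, *Gadd45a*, *Gap43*, *Stmn2*, *Sprr1a*, *Nrn1*, *Ecel1* and *Gal*. They were chosen by name and found by their GENCODE M21 symbol among the 55487 genes counted, and all 10 were found. RNA was sequenced from the cervical spinal cord of 8-week-old mice as 1 library per mouse, with 4 *Neat1*-KO; hSOD1G93A mice (replicates 1 to 4) and 3 *Neat1*-WT; hSOD1G93A mice (replicates 2 to 4), called *Neat1*-KO and *Neat1*-WT below. *Neat1*-KO mice lack both copies of *Neat1*, a long non-coding RNA of nuclear paraspeckles, in every cell. All 7 mice carry hSOD1G93A, a human *SOD1* transgene with a mutation of familial ALS, which causes a progressive loss of motor neurons. Mice without the transgene were not analysed here, so the values compare the genotypes and say nothing of how far either stands from a healthy cord. The tissue was the whole cord segment, in which motor neurons are a small minority of cells.

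When an axon is injured, the kinase DLK signals back to the cell body and the transcription factors JUN and ATF3 are induced in the nucleus. They work with SOX11 and others on genes for growth cone proteins, microtubule regulators, neuropeptides and surface proteins that serve regrowth. In mice with mutant SOD1, the axons of vulnerable motor neurons withdraw from muscle well before the cell bodies die, and ATF3 is a widely used mark of the motor neurons in which this has begun. The comparison of *Neat1*-KO with *Neat1*-WT asks whether that programme differed between the genotypes at 8 weeks.

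Promoter windows of 7 of the 10 genes were matched in RefSeq (build GRCm38.p6), each running from 250 bases before the transcription start to 50 after it. *Gap43*, *Stmn2* and *Nrn1* had no entry. The stretches below, read 5′ to 3′ along the minus strand on which all 4 genes lie, are shown because they hold letters of the kind that JUN and ATF3 dimers bind. Capitals mark the AP-1 site TGACTCA, the cAMP-response-element-like TTACGTCA and the related TGACATCA, each searched on both strands, so that a match on the other strand reads TGAGTCA, TGACGTAA or TGATGTCA.
*Atf3*, chr1:191183334-191183393: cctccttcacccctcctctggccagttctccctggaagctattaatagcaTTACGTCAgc
*Jun*, chr4:95052223-95052312: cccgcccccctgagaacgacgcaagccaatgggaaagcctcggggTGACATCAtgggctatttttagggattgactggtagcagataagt
*Sox11*, chr12:27342719-27342808: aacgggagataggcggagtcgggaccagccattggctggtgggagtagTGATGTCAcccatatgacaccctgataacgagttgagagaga
*Sprr1a*, chr3:92485972-92486101: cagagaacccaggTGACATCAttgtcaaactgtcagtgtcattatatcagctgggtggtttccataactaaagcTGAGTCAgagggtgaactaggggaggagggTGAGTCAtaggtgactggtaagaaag

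Counted from the RefSeq start, the *Atf3* match lay at bases -10 to -3, and the *Jun* match at -45 to -38. The *Sox11* match lay at -42 to -35. *Sprr1a* held 3 matches, beginning at -207, -146 and -116. TGACTCA was found in 5.20% of all 32851 promoter windows of the same length, TGACATCA in 3.62% and TTACGTCA in 0.499%. The full cAMP response element TGACGTCA, present in 1.79% of all windows, was searched too and was in 0 of the 7. None of the 4 motifs was in the windows of *Gadd45a*, *Ecel1* or *Gal*. *Atf3* has 3 annotated transcripts, and its window belongs to a start that lies inside the annotated span of the gene.

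The libraries held between 19661878 and 26031517 counts. *Neat1* itself lay between 4.04 and 5.52 CPM (counts per 1000000 counts, scaled with TMM factors) in *Neat1*-KO and between 80.5 and 118 CPM in *Neat1*-WT, a log2 fold change of -4.25 (adjusted p = 1.52e-08, edgeR quasi-likelihood test). As markers of the tissue, the glycine transporter gene *Slc6a5* was between 445 and 505 CPM in *Neat1*-KO and between 393 and 441 CPM in *Neat1*-WT, without overlap (log2 fold change 0.20, adjusted p = 0.992 in edgeR), and the cervical patterning gene *Hoxc6* was between 28.1 and 39.4 CPM over all 7 libraries. The 6 spinal cord genes summed to 594 to 659 CPM in *Neat1*-KO and 551 to 588 CPM in *Neat1*-WT, and most of the sum was *Slc6a5*. Of the 6, 2 had log2 fold changes above 0 and 4 below, with a median of -0.06. Over all genes tested, 5.47% had libraries that did not overlap between the genotypes. The part of the difference in the sum in the values of the injury genes was not tested. *Xist* was at most 0.161 CPM in every library. The labels name no sex, litter or batch.

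No gene of the group was called different between the genotypes. Of the 10 genes, 9 had enough counts for the test and 0 were called by edgeR, by DESeq2 or by limma-voom. DESeq2 gave *Atf3* no adjusted p, so it could not have called that gene. A call needed a log2 fold change beyond 0.58 in either direction together with an adjusted p below 0.1. Over all 18449 genes tested, 6 were called, which is 0.0325%. Of the 9 genes, 0 had an unadjusted p under 0.05 in edgeR, where 4.64% of all genes did, and 0 had libraries that did not overlap between the genotypes, where 5.47% of all genes did. The log2 fold change of *Neat1*-KO over *Neat1*-WT was above 0 for 4 genes and below 0 for 5, with a median of -0.02. The median over all genes was 0.01. The median size of the change, without its sign, was 0.04 for the 9 genes and 0.09 for all genes. For 8 of the 9, the 95% interval lay inside a 1.5-fold change in either direction, and the one outside was *Atf3*. These bounds are on the level in the whole cord segment and not on that in motor neurons alone.

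**Figure D1:**
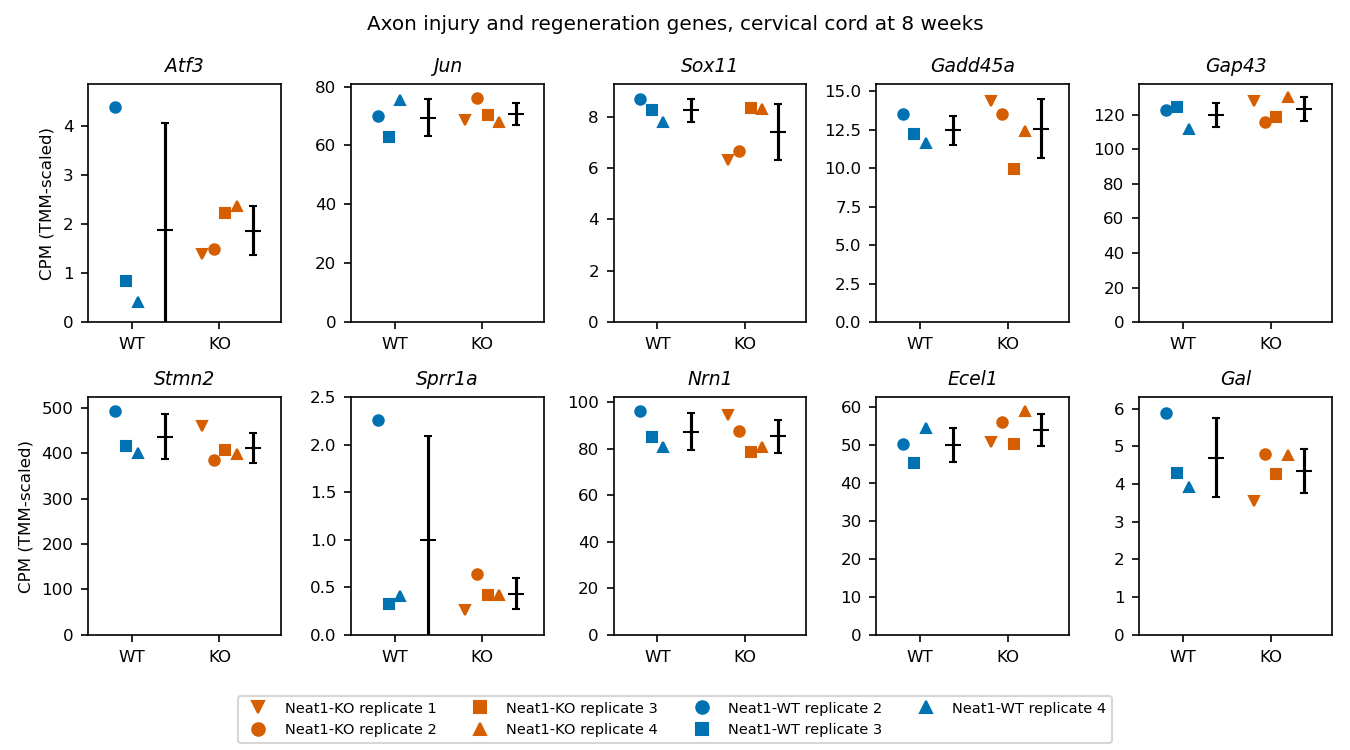
CPM of each of the 10 genes (vertical axes, each from 0) in the 3 *Neat1*-WT libraries (blue) and the 4 *Neat1*-KO libraries (orange), with the replicate number given by the shape of the point. Black bars are the mean ± SD of each genotype, cut at 0. The genotypes overlap in all 10 panels, and *Neat1*-WT replicate 2, at 4.39 CPM for *Atf3* and 2.26 CPM for *Sprr1a*, stands above the other 6 libraries in those panels.

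*Atf3* encodes a stress-induced transcription factor that is almost silent in uninjured neurons. Its level was 1.39, 1.49, 2.23 and 2.36 CPM in the *Neat1*-KO libraries, in the order of their numbers. In *Neat1*-WT it was 4.39 CPM in replicate 2, 0.840 in replicate 3 and 0.408 in replicate 4. The 4 *Neat1*-KO values lay between those of *Neat1*-WT replicate 2 above and *Neat1*-WT replicates 3 and 4 below. The means were 1.87 ± 0.4995 (SD, n = 4) and 1.88 ± 2.19 CPM (SD, n = 3), and the log2 fold change was -0.02 with a standard error of 0.56 (adjusted p = 0.998, edgeR quasi-likelihood test). The two-sided exact permutation test over the 35 assignments of the 7 libraries into 4 and 3 gave p = 0.6. The 95% interval of the fold ran from 0.423 to 2.30, so a 2-fold fall and a 2-fold rise of *Atf3* both lay within it.

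The raw counts of *Atf3* were 97 in *Neat1*-WT replicate 2 (exact Poisson 95% interval 78.7 to 118), 18 in replicate 3 (10.7 to 28.4) and 8 in replicate 4 (3.45 to 15.8). Those of the *Neat1*-KO libraries were 27, 37, 48 and 62. These intervals cover counting error only. Over the 7 libraries *Atf3* ranged 10.8-fold, with a coefficient of variation of 116% in *Neat1*-WT and 26.7% in *Neat1*-KO. *Neat1*-WT replicate 2 was at 7.03 times the mean of replicates 3 and 4, and of the 18449 genes tested, 5 stood further above every other library in that mouse than *Atf3* did, by the gap in log2(CPM + 0.5). Without *Neat1*-WT replicate 2, the log2 fold change of *Atf3* was 1.56 (95% interval 0.67 to 2.46, unadjusted p = 0.00258, adjusted p = 0.9996 in edgeR). That library was singled out after its values were seen.

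*Sprr1a* encodes a small proline-rich protein of the skin's cornified envelope that injured sensory and motor neurons also make. Its raw counts were 5, 16, 9 and 11 in *Neat1*-KO and 50, 7 and 8 in *Neat1*-WT replicates 2, 3 and 4, or 0.257, 0.645, 0.418 and 0.420 CPM against 2.26, 0.327 and 0.408 CPM. The pattern of the high library was that of *Atf3*, with *Neat1*-WT replicate 2 at 6.16 times the mean of the others of its genotype and an interval of 37.1 to 65.9 counts that the other 6 libraries did not reach. The means were 0.435 ± 0.160 (SD, n = 4) and 0.999 ± 1.10 CPM (SD, n = 3), and the exact permutation p was 0.514 (two-sided). The filter on low counts removed *Sprr1a* from the edgeR test. With no filter, its log2 fold change was -1.19 (95% interval -2.07 to -0.32, unadjusted p = 0.00756, adjusted p = 0.494), and without *Neat1*-WT replicate 2 it was 0.26 (95% interval -1.04 to 1.56, adjusted p = 0.982). All 7 counts were above the floor of 3 counts that a count of 0 would allow.

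*Neat1*-WT replicate 2 was the highest of the 7 libraries for 6 of the 10 genes, namely *Atf3*, *Sprr1a*, *Sox11*, *Stmn2*, *Nrn1* and *Gal*. It stood at 1.43 times the mean of *Neat1*-WT replicates 3 and 4 for *Gal* and at 1.21 times for *Stmn2*, and closer to them for *Nrn1* and *Sox11*. *Neat1*-KO replicate 4 was highest for *Gap43* and *Ecel1*. *Neat1*-KO replicate 1 was highest for *Gadd45a* and *Neat1*-KO replicate 2 for *Jun*. *Neat1*-WT replicates 3 and 4 were highest for none of the 10. The share of all genes that were highest in *Neat1*-WT replicate 2 was not counted. The sum of 10 general neuronal genes was also highest in that library, at 15682 CPM, and next in *Neat1*-KO replicate 1, at 15531 CPM.

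Of the other transcription factors, *Jun* encodes the AP-1 subunit c-JUN, the main target of the injury kinases. It was at 68.5, 76.2, 70.4 and 67.9 CPM in *Neat1*-KO and 70.2, 62.8 and 75.3 CPM in *Neat1*-WT, and the libraries of the genotypes were interspersed. The log2 fold change was 0.03 (95% interval -0.15 to 0.21, adjusted p = 0.996 in edgeR, exact permutation p = 0.8). *Sox11*, a developmental factor of the SOX family that returns in regenerating neurons, was at 6.32, 6.65, 8.35 and 8.31 CPM in *Neat1*-KO and 8.69, 8.26 and 7.80 CPM in *Neat1*-WT. Replicates 1 and 2 of *Neat1*-KO were lower than every *Neat1*-WT library and replicates 3 and 4 were not, with a log2 fold change of -0.15 (95% interval -0.47 to 0.17, adjusted p = 0.992 in edgeR, exact permutation p = 0.343). *Gadd45a*, which encodes a protein of DNA damage and growth arrest that is induced early in axotomised neurons, was at 14.3, 13.5, 9.93 and 12.4 CPM in *Neat1*-KO and 13.5, 12.2 and 11.6 CPM in *Neat1*-WT. Both the highest and the lowest library of *Gadd45a* were *Neat1*-KO, and the log2 fold change was 0.01 (95% interval -0.28 to 0.30, adjusted p = 0.997 in edgeR).

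The growth-associated genes overlapped between the genotypes too. *Gap43* encodes a membrane protein of growth cones and presynaptic endings, and was at 128, 116, 119 and 129.9 CPM in *Neat1*-KO and 123, 124 and 112 CPM in *Neat1*-WT. Its log2 fold change was 0.04 (95% interval -0.12 to 0.20, adjusted p = 0.992 in edgeR, exact permutation p = 0.543), the narrowest interval of the 9. *Stmn2* encodes stathmin-2, a regulator of axonal microtubules whose human transcript is mis-spliced when TDP-43 is lost. It was at 459, 384, 407 and 397 CPM in *Neat1*-KO and 492, 415 and 400.0 CPM in *Neat1*-WT, where *Neat1*-WT replicate 2 and *Neat1*-KO replicate 1 were the highest of their genotypes. The log2 fold change was -0.08 (95% interval -0.27 to 0.11, adjusted p = 0.992 in edgeR, exact permutation p = 0.486).

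Among the secreted and surface proteins, *Nrn1* encodes neuritin, a membrane-anchored protein that promotes neurite growth. It was at 94.5, 87.5, 78.7 and 80.7 CPM in *Neat1*-KO and 96.4, 85.0 and 80.9 CPM in *Neat1*-WT, 2 nearly matched ranges with a log2 fold change of -0.03 (95% interval -0.23 to 0.16, adjusted p = 0.996 in edgeR). *Ecel1* encodes a membrane protease of the neprilysin family that motor neurons need to branch within muscle and that nerve injury induces strongly. It was at 50.8, 56.1, 50.4 and 59.0 CPM in *Neat1*-KO and 50.4, 45.4 and 54.4 CPM in *Neat1*-WT. *Ecel1* had the largest rise of the 9 by its log2 fold change, 0.11 (95% interval -0.08 to 0.31, adjusted p = 0.992 in edgeR, exact permutation p = 0.257), and 2 of the 4 *Neat1*-KO libraries lay above every *Neat1*-WT library. *Gal* encodes the neuropeptide galanin, which is low in adult motor and sensory neurons until their axon is cut. It was at 3.54, 4.80, 4.27 and 4.77 CPM in *Neat1*-KO and 5.88, 4.30 and 3.93 CPM in *Neat1*-WT, where *Neat1*-WT replicate 2 was again the highest library. The log2 fold change of *Gal* was -0.11 (95% interval -0.53 to 0.31, adjusted p = 0.992 in edgeR, exact permutation p = 0.6). It is the member on chromosome 19, the chromosome of *Neat1*, and lies 2410164 bases from it.

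**Figure D2:**
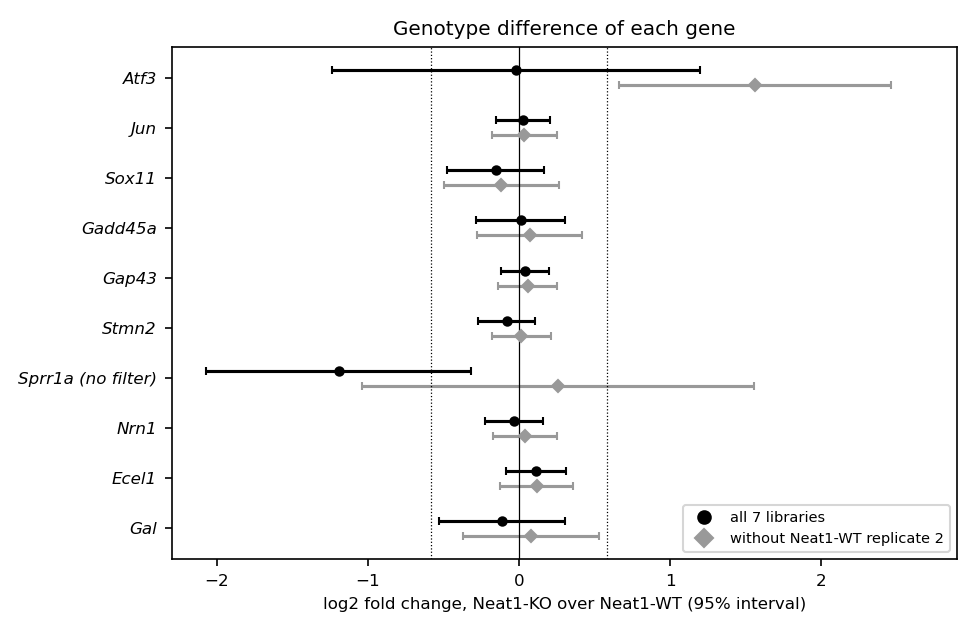
Log2 fold change of *Neat1*-KO over *Neat1*-WT with its 95% interval (horizontal axis) for each gene, from all 7 libraries (black circles) and without *Neat1*-WT replicate 2 (grey diamonds), with *Sprr1a* fitted with no filter on low counts. Dotted lines mark a log2 fold change of 0.58 in either direction. Except for *Atf3* and *Sprr1a*, every interval lies between the dotted lines and spans 0, while *Atf3* moves from -0.02 to 1.56 and *Sprr1a* from -1.19 to 0.26.

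The 8 genes other than *Atf3* and *Sprr1a* varied little between mice, with coefficients of variation of 5.34% to 15.3% in *Neat1*-KO and 5.39% to 22.1% in *Neat1*-WT. The ratio of the highest to the lowest library was 1.16 to 1.66 for them, and 8.81 for *Sprr1a*. Per kilobase of annotated exon, the levels over the 7 libraries ran from 79.8 ± 4.28 CPM per kb (SD) for *Gap43* to 0.840 ± 0.881 for *Sprr1a*, a 95.1-fold range. Between them came *Stmn2* at 75.3, *Nrn1* at 38.3, *Jun* at 22.0, *Ecel1* at 14.96, *Gadd45a* at 7.09, *Gal* at 5.71, *Sox11* at 0.935 and *Atf3* at 0.869 CPM per kb. The ranges of *Gap43* and *Stmn2* overlapped, as did those of *Gadd45a* and *Gal*, and *Sox11*, *Atf3* and *Sprr1a* could not be ordered. With the longest annotated transcript as the length, *Stmn2* was at 124 CPM per kb and *Gap43* at 85.6.

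**Figure D3:**
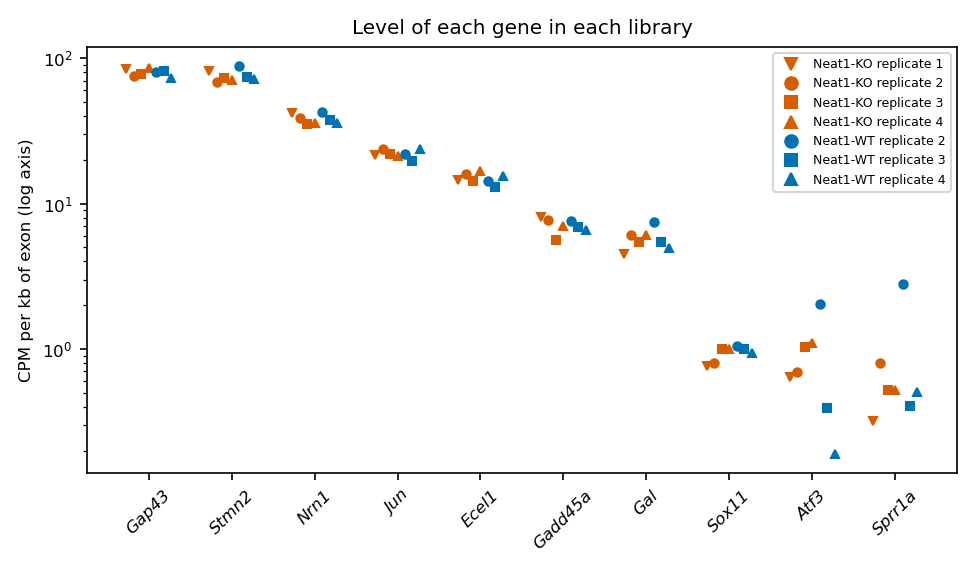
CPM per kilobase of exon (vertical axis, log scale) of the 10 genes in each of the 7 libraries, ordered by their mean, with *Neat1*-KO in orange and *Neat1*-WT in blue. The levels of *Gap43* (mean 79.8) and *Stmn2* (75.3) overlap at the top, and *Sox11* (0.935), *Atf3* (0.869) and *Sprr1a* (0.840) overlap at the bottom, *Atf3* and *Sprr1a* with the widest scatter.

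On the annotation, 3 of the genes share exon sequence with a gene on the other strand: *Jun* with the antisense RNA *Junos* over 232 bases, *Gadd45a* with *E230016M11Rik* over 337 bases, and *Nrn1* with *Fars2* over 501 bases. The libraries were directional, but the strand setting of the counting is not given in the sources used here, so the counts of these 3 genes are uncertain to that extent. *Junos* was between 8.68 and 13.3 CPM, *E230016M11Rik* between 6.02 and 9.59 CPM, and *Fars2* between 44.8 and 57.9 CPM. Their log2 fold changes were -0.06, 0.21 and -0.11, with adjusted p values of 0.996, 0.992 and 0.992 in edgeR. A search of all transcripts found no near-identical copy of any of the 10 genes at another locus, at 90% identity over 50% of the length.

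The wider injury programme was followed in 90 other genes in 6 lists, of which 84 were tested. Of these, 0 were called higher and 1 was called lower, the small heat shock gene *Hspb1*, whose product injured motor neurons depend on to survive. It was at 28.7, 30.8, 31.6 and 28.3 CPM in *Neat1*-KO and 45.3, 53.0 and 40.7 CPM in *Neat1*-WT, so every *Neat1*-KO library was lower, with a log2 fold change of -0.63 ± 0.10 (SE; adjusted p = 0.075, edgeR). The call was lost on leaving out any of 4 libraries, which were replicates 2 and 4 of *Neat1*-KO and replicates 2 and 3 of *Neat1*-WT. Over all genes tested, 0.0325% were called. The lists were chosen with earlier results of these data known, so a call within them is not independent of that choice. The fold changes were above 0 for 40 of the 84 and below 0 for 44, with a median of -0.0021.

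Of the 16 transcription factors, all tested, 10 were above 0 and 6 below, and 0 were called. *Stat3*, the effector of injury cytokines, had a log2 fold change of 0.09, *Klf6*, a growth-promoting factor, -0.06, and the activity-driven *Egr1* 0.04. Of the 10 injury kinases, 3 were above 0, 7 below and 0 called, and *Map3k12*, which encodes DLK, was at 138 to 148 CPM in every library with a log2 fold change of -0.03 (95% interval -0.17 to 0.11). Of 14 cytokine and trophic factor genes tested, 6 were above 0, 8 below and 0 called. *Csf1*, which injured neurons use to recruit microglia, had a log2 fold change of 0.13 (adjusted p = 0.992), with 42.5 to 55.9 CPM in *Neat1*-KO and 39.9 to 54.8 CPM in *Neat1*-WT. An unadjusted p under 0.05 was reached by the GDNF receptor gene *Gfra1* (log2 fold change -0.24, unadjusted p = 0.0129, adjusted p = 0.992) and the LIF receptor gene *Lifr* (-0.24, unadjusted p = 0.0356, adjusted p = 0.992), both in edgeR.

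Of 21 growth and cytoskeleton genes, 9 were above 0, 12 below and 0 called. *Basp1*, a relative of *Gap43* in growth cones, had a log2 fold change of 0.08, and the neuronal tubulin gene *Tubb3* -0.04. *Dpysl3*, a collapsin response mediator, was at -0.19 (unadjusted p = 0.0164, adjusted p = 0.992 in edgeR). Of 18 effectors and peptides tested, 10 were above 0 and 8 below, and *Hspb1* was the call. The cell cycle inhibitor gene *Cdkn1a* was at 15.1 to 22.8 CPM in *Neat1*-KO and 24.0 to 28.2 CPM in *Neat1*-WT, without overlap, with a log2 fold change of -0.41 (unadjusted p = 0.0101, adjusted p = 0.962 in edgeR). Chosen after their values were seen, the other 3 genes of this list under an unadjusted p of 0.05 were the death gene *Bbc3* (0.67, unadjusted p = 0.00946), *Anxa2* (-0.22, unadjusted p = 0.025) and *Gch1* (-0.51, unadjusted p = 0.0489), with adjusted p values of 0.962, 0.992 and 0.992. Of 5 genes of axon degeneration and NAD, 2 were above 0, 3 below and 0 called, with *Sarm1*, the executioner of axon death, at -0.0031 and its antagonist *Nmnat2* at -0.11 (adjusted p = 0.992). Over the 84 genes, 8 had an unadjusted p under 0.05, 1 higher and 7 lower, beside 4.64% of all genes. Libraries that did not overlap were found for 9 of the 84, 2 higher and 7 lower, beside 5.47% of all genes. The lists were not tested as sets.

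**Figure D4:**
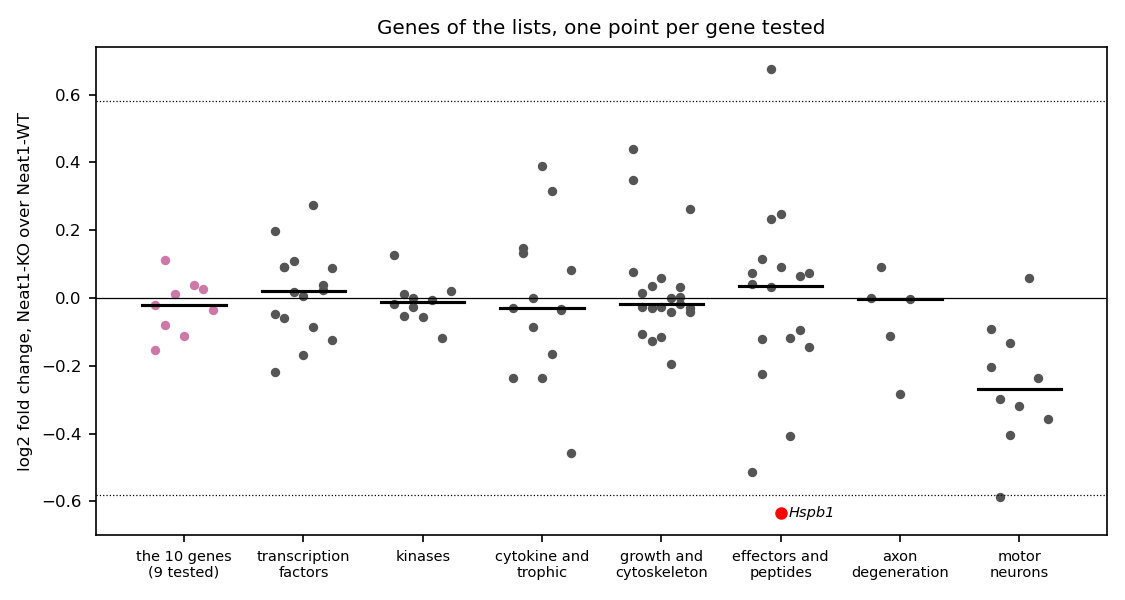
Log2 fold change of *Neat1*-KO over *Neat1*-WT (vertical axis) for each tested gene of the injury genes and lists and of the motor neuron list, with the median of each as a black line and dotted lines at 0.58 in either direction. The 9 tested genes lie between -0.15 and 0.11, *Hspb1* at -0.63 is the call (red), and the median of the motor neuron genes is -0.27.

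Motor neurons are the cells in which these injury genes are usually read in this model. Of 10 motor neuron genes, 0 were called, 9 had log2 fold changes below 0, and the median was -0.27. Their summed level was 324 to 399 CPM in *Neat1*-KO and 426 to 511 CPM in *Neat1*-WT, without overlap, and the highest sum was that of *Neat1*-WT replicate 2. Most of the sum came from *Slc5a7*, *Prph* and *Slc18a3*. Singly, 2 of the 10 genes had libraries that did not overlap, beside 5.47% of all genes. An unadjusted p under 0.05 in edgeR was reached by 4 of the 10, beside 4.64% of all genes. *Chat*, the enzyme of acetylcholine synthesis, was at -0.09 (adjusted p = 0.992 in edgeR), *Mnx1* at -0.36, *Isl1* at -0.13 and the intermediate filament gene *Prph* at -0.20 (unadjusted p = 0.0499). Below an unadjusted p of 0.05 with *Prph*, and named after their values were seen, were *Chodl* at -0.59 (adjusted p = 0.719), *Slc18a3* at -0.30 (0.840) and *Slc5a7* at -0.40 (0.992). In whole tissue, fewer motor neurons and less RNA per motor neuron cannot be told apart, and the part of either in the injury gene values was not tested. The genotypes overlapped in 10 general neuronal genes, which summed to 13467 to 15531 CPM in *Neat1*-KO and 13899 to 15682 CPM in *Neat1*-WT, and *Snap25* was at -0.03.

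Other tissues that hold these genes were read in the same libraries. The 5 Schwann cell genes, which mark attached nerve roots and whose cells also make *Jun* and *Atf3* after injury, summed to 39.9, 113, 79.3 and 104 CPM in *Neat1*-KO and 44.9, 50.4 and 106 CPM in *Neat1*-WT. The libraries low in Schwann cell genes were replicate 1 of *Neat1*-KO and replicates 2 and 3 of *Neat1*-WT. *Neat1*-WT replicate 4, the lowest library in *Atf3*, was the second highest in the sum of the Schwann cell genes. The part of nerve roots in the *Atf3* and *Sprr1a* values was not tested. Meningeal genes were lowest in *Neat1*-WT replicate 2, at 63.8 CPM, and highest in *Neat1*-WT replicate 4, at 191 CPM.

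Sensory ganglion genes summed to 6.53 to 8.47 CPM in *Neat1*-KO and 7.69, 7.94 and 10.3 CPM in *Neat1*-WT replicates 2, 3 and 4. *Scn10a* was at 0.255 CPM or less and *Avil* at 1.12 CPM or less in every library, and *Scn10a* was at 0 CPM in *Neat1*-WT replicate 2. Most of the sum was *P2rx3*, an ATP receptor gene named after its values were seen, which was at 4.51 to 5.99 CPM in *Neat1*-KO and highest of the 7 libraries in *Neat1*-WT replicate 2, at 6.47 CPM. The 6 keratinocyte genes summed to 14.3 CPM in that library and to 13.2 to 19.6 CPM over all 7, with *Krt14* at 0.280 CPM or less, *Krt5* at 0.204 or less and *Ivl* at 0.0467 or less. Immediate early genes, which rise with activity and handling, summed to 111 CPM in *Neat1*-WT replicate 2 and to 108 to 139 CPM over all 7, and *Fos* was at 15.3 CPM there against 13.2 to 22.5. Microglial genes summed to 221 to 308 CPM in *Neat1*-KO and 216 to 303 CPM in *Neat1*-WT, and were lowest in *Neat1*-WT replicate 2. The part of any of these cells in the values of the injury genes was not tested.

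**Figure D5:**
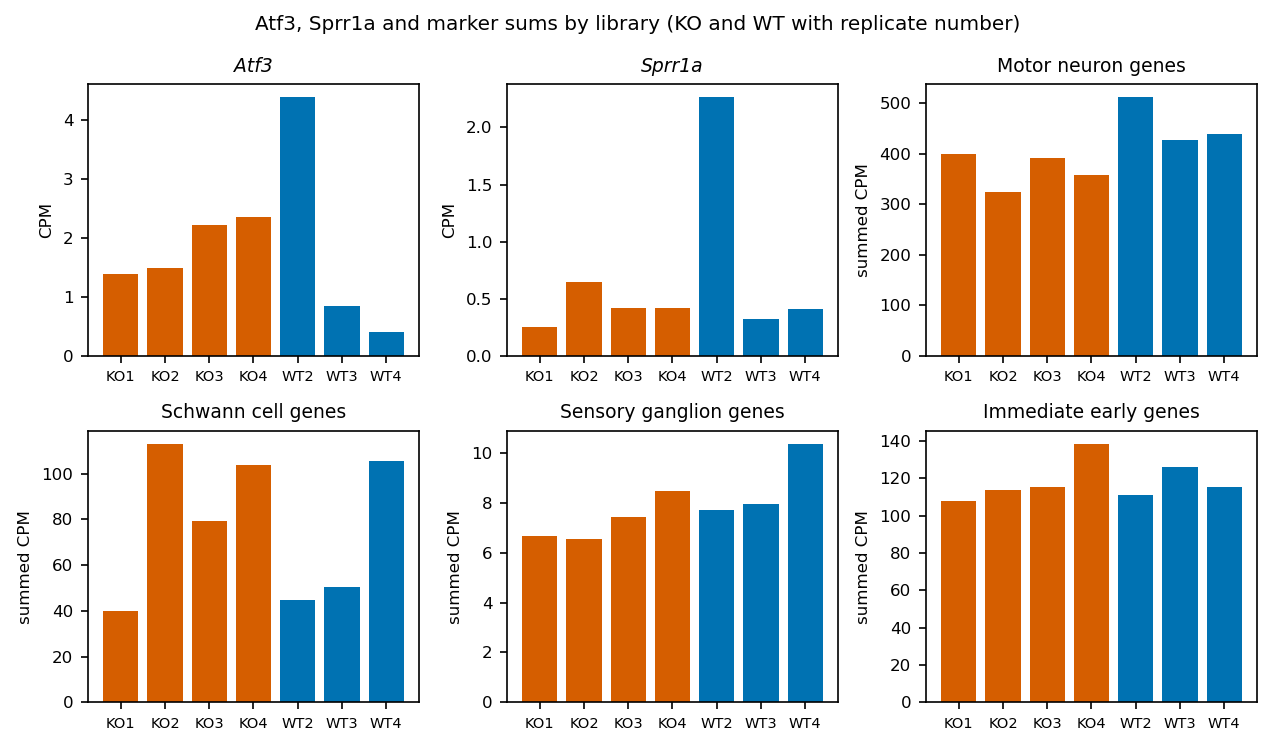
Levels of *Atf3* and *Sprr1a* and summed levels of 4 marker lists (CPM, vertical axes from 0) in each library, *Neat1*-KO in orange and *Neat1*-WT in blue with the replicate number. *Neat1*-WT replicate 2 is highest for *Atf3* (4.39), *Sprr1a* (2.26) and motor neuron genes (511) and among the lowest for Schwann cell genes (44.9).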

How the data were processed

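Total RNA from cervical spinal cords was made into poly(A) directional libraries with the NEBNext Poly(A) and Ultra II Directional kits and sequenced from both ends. The submitters' processing notes name FastQC 0.11.7, Trimmomatic 0.38, HISAT2 2.1.0, SAMtools 1.9 and featureCounts 1.6.3, and the build mm10. The authors counted uniquely mapped reads and deposited raw counts per Ensembl gene, without normalization. The annotation release and strand setting are not given in the sources used here. Reads that match 2 loci equally are therefore missing from both.

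Groups and replicate numbers came from the sample labels. GENCODE M21 on GRCm38 named 55227 of 55487 genes. The 260 unnamed ones held 0.00446% of counts. Depth was 19661878 to 26031517 counts, so the floor of 3 counts was 0.114 to 0.154 CPM. Poisson intervals and floors cover counting error only. The intervals and p-values of the fold changes set the genotype difference against the spread between these libraries, as estimated by the fit.

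Counts were filtered by filterByExpr, scaled by TMM and tested in edgeR 4.0.16 (R 4.3.3) by the quasi-likelihood F-test with Benjamini-Hochberg adjustment over 18449 genes. Calls needed a log2 fold change beyond 0.58 in either direction with an adjusted p below 0.1. The standard error is the log2 fold change over the root of F. Single genes were also tested by a two-sided exact permutation test on log2(CPM + 0.5), whose smallest p is 0.0286. Lists are given as counts and sums with no test. The tests were checked on simulated data.

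Alternatives were DESeq2 1.42.0, limma-voom (limma 3.58.1), median-of-ratios or upper-quartile scaling, testing without a filter or with one of 0.5 CPM in 1 library, robust dispersion, *Xist* as covariate, a replicate block, leaving out each library, an adjusted p under 0.05, no fold minimum, a pseudocount of 0.1 and another gene length. The fits of *Sprr1a* with no filter and a library left out were added after its values were seen. Copies were searched by BLAST 2.17.0, and plots used Python 3.11.15, pandas 2.3.3 and matplotlib 3.10.9.

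The 10 genes and all lists were chosen with earlier results of these data known. The genes named were the 10, those of the injury lists that were called or, in a list with no call, had an unadjusted p under 0.05, and genes fixed by role, of which some are not reported here. *Bbc3*, *Anxa2*, *Gch1*, *Chodl*, *Slc18a3*, *Slc5a7*, *P2rx3*, *Drp2*, *Prx*, *Krt5*, *Krt14*, *Ivl* and the 3 genes overlapping one of the 10 fall outside this rule and were named after their values were seen.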

Additional observations from a re-analysis of the deposited data

Results flagged for a closer look

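Among 38 of the genes named, each read in the 4 *Neat1*-KO libraries, 1 had a library far from the other 3 by Dixon's test, where chance alone flags about 5% of such groups. The 38 include *Bbc3*, *Anxa2* and *Gch1*, which were named after their values were seen. *Tubb3*, of the growth and cytoskeleton list, was at 652 CPM in *Neat1*-KO replicate 1, and the nearest of the others was at 532 CPM, a gap of 0.844 of the whole range. None of the 10 axon injury genes was flagged. The 3 *Neat1*-WT libraries were too few for this test, so *Neat1*-WT replicate 2, with 4.39 CPM of *Atf3* and 2.26 CPM of *Sprr1a*, could not be judged by it.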

How the results depend on the processing

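The count of the 10 genes called was 0 under every alternative run. Of 151 refits of single genes, 128 kept the direction of the fold change and 23 changed its sign, and 0 gave a call. For *Atf3* the log2 fold change was 0.60 with limma-voom, 0.54 with *Xist* as a covariate, 0.55 with the replicate block, 0.085 and 0.077 without *Neat1*-KO replicates 1 and 2, and 1.56 without *Neat1*-WT replicate 2, with a range of -0.48 to 1.56 as each library was left out. DESeq2 gave *Atf3* no adjusted p. *Gadd45a* was at -0.0026 with limma-voom, -0.065 with the replicate block and -0.077 with *Xist*, and between -0.059 and 0.11 as each library was left out. *Xist*, at most 0.161 CPM, turned *Sox11* to 0.015 and *Gal* to 0.00023. Its counts were 3, 4, 2 and 0 in *Neat1*-KO and 0, 1 and 0 in *Neat1*-WT, near or below the floor of 3 counts. The fits with *Xist* as a covariate are therefore no check on sex. As each library was left out, *Jun* ran from -0.040 to 0.087, *Gap43* from -0.0090 to 0.068, *Stmn2* from -0.14 to 0.016, *Nrn1* from -0.090 to 0.040, *Gal* from -0.23 to 0.083 and *Sprr1a*, with no filter, from -1.61 to 0.26. The upper ends of *Atf3*, *Stmn2*, *Nrn1*, *Gal* and *Sprr1a* are those without *Neat1*-WT replicate 2. The cause was not tested. With no filter and a library other than *Neat1*-WT replicate 2 left out, the adjusted p of *Sprr1a* in edgeR was 0.105 to 0.919.

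The median log2 fold change of the 9 genes tested ran from -0.12 to 0.057 as each library was left out. The count of all genes called, 6 as reported, was 124 with no filter, 27 with DESeq2, 39 with the replicate block, and 3 to 31 as each library was left out, being 31 without replicate 1 of *Neat1*-KO, 3 without replicate 3 of *Neat1*-WT and 11 without its replicate 4. The count in the other injury lists, 1 as reported, was 0 with *Xist* and 0 at an adjusted p under 0.05, and 0 to 1 as each library was left out. Whether the replicate numbers pair the libraries was not settled. Deviations of same-numbered libraries from their genotype mean correlated at -0.16, -0.14 and -0.14 and those of other pairs at 0.06 to 0.09. With 3 libraries per genotype, taking off the mean ties these values together, so they cannot decide it. *Atf3* and *Sprr1a* had 8 to 97 and 5 to 50 counts per library. The Poisson interval of *Atf3* was 78.7 to 118 counts in *Neat1*-WT replicate 2, 10.7 to 28.4 in replicate 3 and 3.45 to 15.8 in replicate 4. That of *Sprr1a* was 37.1 to 65.9, 2.81 to 14.4 and 3.45 to 15.8 in the same order. For both genes, replicate 2 thus stood apart from replicates 3 and 4 by more than counting error. The part of depth in the width of the fold change intervals was not tested.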
